A study of Mus musculus with 6 samples.

Results

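The genes of hemoglobin and of heme iron handling were followed in mouse ear skin at the site of a tick bite. Members were the rows of the normalized table whose symbol was Hba-a1, Hba-a2, Hbb-bs, Hbb-bt, Alas2, Hmox1, Slc40a1, Fth1, Ftl1 or Tfrc. All 10 were present among the 15667 genes of the table, all 10 had reads in every library, and all 10 passed the filter on low values (a mean of 1 CPM or more, CPM being counts per 1000000 reads). Skin came from female mice bred from heterozygous Adipo+/- parents of a mixed strain background, 7 to 8 weeks old, on which 10 Ixodes scapularis nymphs per mouse had fed for 48 h. WT mice (Adipo+/+) carried both copies of Adipoq, the gene of the fat cell hormone adiponectin. KO mice (Adipo-/-) were littermates homozygous for a null allele in every cell, made in cells of another strain, so that sequence near Adipoq can differ between the groups as well. Each library came from one 3.5 mm ear punch of 1 mouse (n = 3 WT and n = 3 KO). Both groups were bitten, unbitten skin was not analysed here, and the sources used here do not say whether these mice carried Borrelia burgdorferi. The question was how much blood each punch held, and whether transcripts of iron handling by the tissue differed with genotype.

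Hemoglobin is built from alpha and beta globin chains, each holding a heme group with its iron. Red blood cells and their precursors make both chains, and reticulocytes carry the transcripts into the circulation, so that in skin these transcripts are known as a sign of blood. Alas2 starts heme synthesis in the erythroid lineage. Macrophages that engulf red cells open the heme ring with heme oxygenase 1 (Hmox1), store the freed iron in ferritin (Fth1 and Ftl1) and release it through ferroportin (Slc40a1), whereas the transferrin receptor (Tfrc) brings iron into cells.

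The promoters of the blood genes are shown as a reference, and whether they bear on the levels in these libraries was not tested. The 120 bases upstream of the RefSeq start (GRCm38.p6) are given 5′ to 3′ on the strand of the gene. Capitals mark TATAA on the sense strand and, on either strand, the CCAAT box, the CACCC box and the GATA motif (AGATAA, with T also allowed as its first letter and G as its last). In Hbb-bt a reverse CCAAT adjoins the forward one.
Hba-a1, chr11:32283552-32283671, plus strand: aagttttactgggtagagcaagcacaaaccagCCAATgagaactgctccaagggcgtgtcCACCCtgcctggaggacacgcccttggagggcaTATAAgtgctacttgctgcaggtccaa
Hbb-bs, chr7:103827929-103828048, minus strand: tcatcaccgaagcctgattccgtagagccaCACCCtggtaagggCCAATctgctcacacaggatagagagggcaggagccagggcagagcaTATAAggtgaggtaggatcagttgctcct
Hbb-bt, chr7:103813924-103814043, minus strand: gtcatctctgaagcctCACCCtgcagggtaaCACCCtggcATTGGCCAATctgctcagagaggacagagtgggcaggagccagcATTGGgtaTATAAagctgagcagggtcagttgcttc
Alas2, chrX:150547297-150547416, plus strand: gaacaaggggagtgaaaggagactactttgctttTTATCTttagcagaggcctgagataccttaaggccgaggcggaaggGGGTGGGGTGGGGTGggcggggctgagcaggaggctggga

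In the 3 globin promoters TATAA began at position -27 (Hba-a1), -29 (Hbb-bs) and -28 (Hbb-bt) from the start, and each also held CCAAT and CACCC. The Alas2 window held CACCC 3 times on the opposite strand and 1 GATA motif, also on the opposite strand, and neither TATAA nor CCAAT. Over all 32851 RefSeq promoter windows of this length, TATAA was found in 8.53%, CCAAT in 21.3%, CACCC in 31.7% and the GATA motif in 12.8%. The promoter window of Hba-a2 was a copy of that of Hba-a1. With the 2 starts shifted by 3 bases, 297 aligned bases held 0 differences.

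A second set of sequences is shown because several iron members share a control that acts in part on translation, which transcript levels do not report. Iron regulatory proteins bind a hairpin, the iron responsive element, in the transcripts of ferritin, Alas2 and Tfrc. Bound at the 5′ end it holds back translation, and bound at the 3′ end of Tfrc it protects the transcript from decay. Matches to CNNNNNCAGTGN, the side bulge and loop of that hairpin, were searched on the sense strand of the GENCODE M21 transcript 201 of each gene. The other members, Slc40a1 among them, were not searched. Each match is given within 30 bases (GRCm38), with the loop in capitals.
Fth1, 5′ UTR, chr19:9982730-9982759, plus strand: gtttcctgcttcaaCAGTGCttgaacggaa
Ftl1, 5′ UTR, chr7:45459780-45459809, minus strand: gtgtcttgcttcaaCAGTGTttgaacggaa
Alas2, 5′ UTR, chrX:150547456-150547485, plus strand: ctttggttcgtcctCAGTGCagggcaacag
Tfrc, 3′ UTR, chr16:32631217-32631246, plus strand: ataattatcggaagCAGTGCcttccataat
Tfrc, 3′ UTR, chr16:32631596-32631625, plus strand: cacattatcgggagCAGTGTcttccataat
Tfrc, 3′ UTR, chr16:32631661-32631690, plus strand: gtctatatcggagaCAGTGAtctccatatg
Tfrc, 3′ UTR, chr16:32631708-32631737, plus strand: gtaattatcgggaaCAGTGTttcccataat

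The ferritin, Alas2 and Tfrc transcripts held the loop letters at opposite ends. Fth1, Ftl1 and Alas2 each had 1 match in the 5′ UTR, and Tfrc had 5 in the 3′ UTR and 0 in the 5′ UTR. Of the 5, 4 are printed, and the other overlapped the third printed window. Fth1 had 1 further match in its 3′ UTR and Alas2 1 in its coding sequence. The letters alone are common. Of 58797 protein-coding transcripts, 55.6% held at least 1 match and 4.37% held 5 or more.

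The labels were first checked. Adipoq stood at 30.5, 63.7 and 49.6 CPM in WT replicates 1, 2 and 3, and at 0, 0.560 and 0 CPM in the KO replicates, so that all 6 libraries fitted their labels. Skin genes were abundant throughout, with Krt5 at 4810.2 CPM or more in each library. Implied depth was 4131259 to 6065347 reads in WT and 3403773 to 6591320 reads in KO, and 3 reads stood for 0.455 to 0.881 CPM. The libraries differed widely in hair follicle transcripts, which were highest in WT replicate 3 and almost absent in WT replicates 1 and 2. The 14 hair follicle genes summed to 9.68, 13.0 and 23139 CPM in WT replicates 1, 2 and 3. In KO replicates 1, 2 and 3 they summed to 1829, 9181 and 954 CPM. Where the difference of a member or the median of a marker list moved strongly without WT replicate 3, that value is given too. Such a fit compares WT libraries almost without hair follicle transcripts with KO libraries that held them.

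Hemoglobin transcripts differed far more between libraries of the same genotype than between genotypes. Hba-a1 and Hba-a2 (chromosome 11) encode the adult alpha chain. Hba-a1 was at 348, 80.4 and 2369 CPM in WT replicates 1, 2 and 3, and at 22.7, 215 and 527 CPM in KO replicates 1, 2 and 3. WT replicate 3 was the highest library and KO replicate 1 the lowest, and the other 4 lay between them with the groups mixed. Hba-a2 was at 464, 117 and 3224 CPM in WT and at 47.8, 264 and 716 CPM in KO, in the same order. Within WT the highest library exceeded the lowest 29.5-fold for Hba-a1 and 27.6-fold for Hba-a2. Within KO these ratios were 23.2 and 15.0. The libraries of each genotype thus differed among themselves by more than the 2 genotypes did. Each mouse gave 1 punch and 1 library, so differences between mice, punch sites and library preparations cannot be told apart.

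Hbb-bs and Hbb-bt (chromosome 7, minus strand, 103826523 to 103827928 and 103812524 to 103813923) encode the adult beta chain. Hbb-bs was at 189.9, 53.2 and 1518 CPM in WT and at 17.6, 132 and 339 CPM in KO. Hbb-bt was lower, at 35.2, 8.52 and 259.7 CPM in WT and at 3.07, 26.0 and 63.8 CPM in KO. Both repeated the order seen for the alpha genes, from WT replicate 3 through KO replicate 3, WT replicate 1, KO replicate 2 and WT replicate 2 down to KO replicate 1. The lowest value, that of Hbb-bt in KO replicate 1, rested on 20 implied reads.

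**Figure D1:**
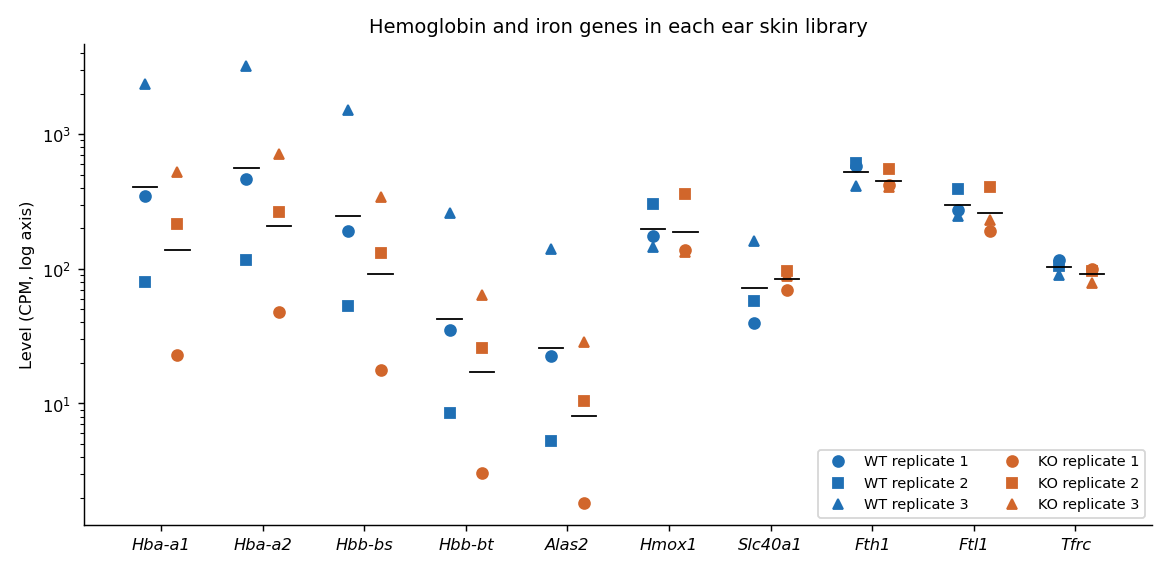
Level of each of the 10 genes in each library, in CPM on a log axis, for WT (blue) and KO (orange). Circles, squares and triangles mark replicates 1, 2 and 3, and short lines mark the geometric mean of 3 libraries. The 4 globin genes and Alas2 spread over more than a factor of 10 within each genotype, with WT replicate 3 on top and KO replicate 1 at the bottom, while Fth1 and Tfrc stayed within 1.51-fold and 1.47-fold over all 6 libraries.

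The 4 globin genes were summed because their reads are hard to separate. The sum was 1037, 259 and 7370.5 CPM in WT replicates 1, 2 and 3, and 91.2, 637 and 1646 CPM in KO replicates 1, 2 and 3. These amounts were 0.00912% to 0.737% of all reads. On the log2 scale the sum averaged 10.30 ± 2.43 in WT and 8.84 ± 2.12 in KO (SD, n = 3 each), a difference of -1.45 that was smaller than the spread within either group. It shrank to -0.18 when WT replicate 3 was left out and to -0.29 when KO replicate 1 was, and grew to -2.59 when WT replicate 2 was left out and to -2.38 when KO replicate 3 was. In bulk RNA from a punch, fewer red cells and less globin RNA per red cell cannot be told apart.

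The globin genes kept fixed proportions while their sum moved 80.8-fold. The table also lists Hbb-b1 at the position of Hbb-bs and Hbb-b2 with the 6 values of Hbb-bt. With these included, globin genes took 0.0127% to 1.04% of all reads. The ratio of alpha to beta reads was then 1.33, 1.17 and 1.17 in WT and 1.25, 1.18 and 1.16 in KO. Hba-a2 took 55.1% to 67.8% of the alpha reads, with the highest share in KO replicate 1, the library with the fewest. Hbb-b1 took 62.8% to 64.96% of the reads at the Hbb-bs position. The coding sequences of Hba-a1 and Hba-a2 differ at 1 of 426 bases, and those of Hbb-bs and Hbb-bt at 1 of 441, and the table gives both alpha genes nearly the same span (32283672 to 32297303 and 32283675 to 32297310). Shares between near-identical copies are therefore uncertain, and the sums are the firmer values.

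Alas2 (chromosome X, 150547417 to 150570622, plus strand), the erythroid enzyme of heme synthesis, followed the globin genes at a much lower level. It was at 22.5, 5.29 and 141 CPM in WT replicates 1, 2 and 3, and at 1.82, 10.4 and 28.5 CPM in KO replicates 1, 2 and 3, the lowest value resting on 12 implied reads. The library order was that of the globin genes. Per 100 CPM of the 4 globin genes, Alas2 was at 2.17, 2.04 and 1.91 CPM in WT and at 1.995, 1.63 and 1.73 CPM in KO. The WT and KO ranges of this ratio overlapped, and it varied 1.33-fold while Alas2 itself varied 77.5-fold.

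**Figure D2:**
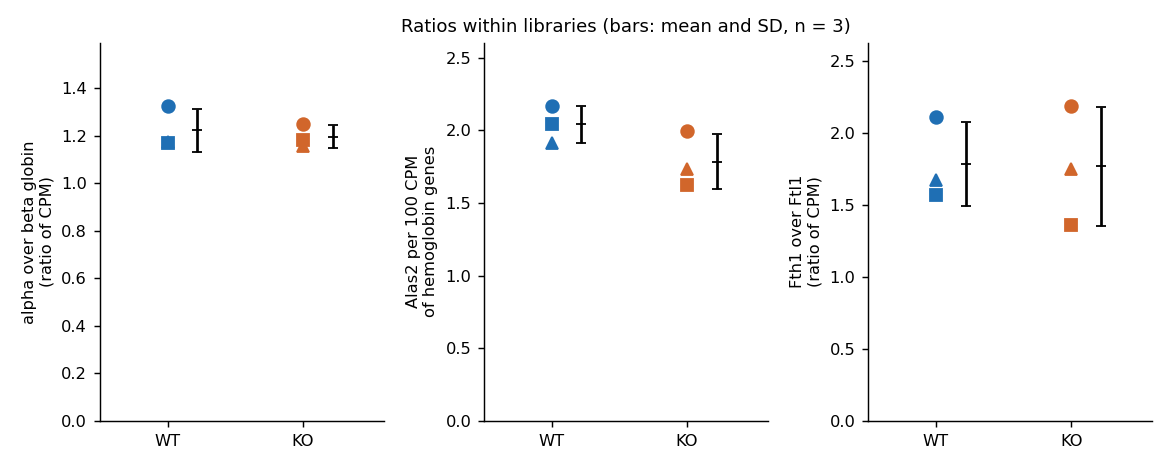
Ratios within each library for WT (blue) and KO (orange), with circles, squares and triangles for replicates 1, 2 and 3 and black bars for the mean and SD (n = 3). The left panel divides alpha by beta globin CPM (all globin rows), the middle panel gives Alas2 CPM per 100 CPM of the 4 globin genes, and the right panel divides Fth1 by Ftl1 CPM. Alpha over beta lay between 1.16 and 1.33 and Alas2 between 1.63 and 2.17 in all 6 libraries.

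Only 21 of the 14306 genes tested (0.147%) had exactly the library order of the hemoglobin sum. Of the genes in the lists used here these were the 4 globin genes, Hbb-b1, Hbb-b2, Alas2 and Tubb1, a platelet tubulin. The 4 globin genes and their copies set this order, so their presence is no finding, whereas Alas2 and Tubb1 did not enter the sum. Tubb1 was sparse, with 9, 1 and 48 implied reads in WT and 0, 7 and 12 in KO, so that part of its order rested on 9 against 7 reads and on 1 against 0. By Pearson correlation with the log2 hemoglobin sum over the 6 libraries, the 5 nearest of 11682 genes were Hbb-b1 and Hbb-b2 (r above 0.99 and the same reads in part), Alas2 (r = 0.997), Pttg1ip (r = 0.974) and Tsc22d1 (r = 0.969). Pttg1ip moved little, from 77.4 to 90.5 CPM, and Tsc22d1 from 71.5 to 127 CPM. These are descriptions over 6 libraries that share their depth and preparation.

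Other red cell genes were sparse. Of 25 genes of the erythroid list 10 were in the table and 9 were tested. Bpgm, which makes the regulator of oxygen release, was at 16.7, 14 and 64.0 CPM in WT and at 15.8, 25.8 and 27 CPM in KO. Slc4a1, the red cell anion exchanger, did not follow hemoglobin, at 0, 0.203 and 18.6 CPM in WT and at 1.82, 9.81 and 0.294 CPM in KO. It was second highest in KO replicate 2 and near 0 in KO replicate 3, which is the order of the hair follicle genes and not of hemoglobin. Slc25a37, the mitochondrial iron importer, was at 31.7, 18.7 and 118 CPM in WT and at 23.8, 37.8 and 27.6 CPM in KO, also with KO replicate 2 second. The membrane skeleton genes Sptb (34.6 to 55.8 CPM) and Ank1 (13.4 to 19.98 CPM), the water channel Aqp1 (63.0 to 101.2 CPM) and the transcription factor Tal1 (2.88 to 4.88 CPM) varied less. Sptb, Ank1 and Aqp1 are known from muscle or blood vessels as well.

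Some platelet genes moved with hemoglobin and others did not, and neutrophil genes did not. The 7 platelet genes tested summed to 88.5, 87.2 and 110.7 CPM in WT and to 59.7, 87.4 and 74.8 CPM in KO. WT replicate 3 was highest and KO replicate 1 lowest in 3 of 7 (Ppbp, Itgb3 and Tubb1), a pattern of 5.26% of all genes tested. Others went another way. Pf4 was highest in WT replicate 2 (48.8 CPM) and KO replicate 2 (48.2 CPM), as the macrophage genes below. Gp1bb was highest in KO replicate 1 (17.0 CPM), the library with the least hemoglobin. Neutrophils also travel in blood. The 6 neutrophil genes tested summed to 556, 199.8 and 31.3 CPM in WT and to 192, 84.1 and 90.2 CPM in KO. The library with the most hemoglobin thus had the fewest neutrophil transcripts, and 0 of 6 neutrophil genes had WT replicate 3 highest.

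Heme oxygenase 1 did not follow hemoglobin. Hmox1 (chromosome 8, 75093618 to 75100593, plus strand) was at 176, 302 and 146 CPM in WT replicates 1, 2 and 3, and at 138, 361 and 134 CPM in KO replicates 1, 2 and 3. The highest libraries were KO replicate 2 and WT replicate 2, whose hemoglobin sums were among the 3 lowest, and WT replicate 3 was near the bottom. Hmox1 per unit of Alas2 therefore ran from 1.03 in WT replicate 3 to 75.7 in KO replicate 1. Within WT the highest library exceeded the lowest 2.08-fold, and within KO 2.7-fold.

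Macrophage genes had the same pair of highest libraries. The 12 genes tested summed to 739.7, 1017 and 514 CPM in WT and to 484, 949 and 583 CPM in KO. In 10 of the 12 the highest pair was WT replicate 2 and KO replicate 2, a pattern of 8.69% of all genes tested. Cd163, the macrophage receptor for hemoglobin bound to haptoglobin, was at 97.1, 133 and 54.2 CPM in WT and at 46.6, 112 and 52.3 CPM in KO. With the macrophage score as a covariate, an alternative chosen after the data were seen, the difference of Hmox1 between genotypes was -0.06 with an SE of 0.17, against -0.07 with an SE of 0.41 without it. The 5 genes nearest to Hmox1 were Arhgap1 (r = 0.99), Itgb7 (r = 0.983), Tnfrsf21 (r = 0.98), Sectm1a (r = 0.977) and Clec4a3 (r = 0.975), over the same 6 libraries.

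The ferritin genes were the most abundant iron members. Fth1 (chromosome 19, 9980600 to 9985111, plus strand), the chain that oxidises iron, was at 579, 611 and 411.5 CPM in WT and at 419, 550.4 and 404 CPM in KO. Ftl1 (chromosome 7, 45457944 to 45459886, minus strand), the light chain that helps form the iron core, was at 274, 390.0 and 246 CPM in WT and at 191, 403 and 230.0 CPM in KO. Ftl1 shared its 3 highest libraries, KO replicate 2, WT replicate 2 and WT replicate 1, with Hmox1. Fth1 had these 3 on top as well, in another order. Fth1 over Ftl1 was 2.11, 1.57 and 1.67 in WT and 2.19, 1.37 and 1.75 in KO, lowest in KO replicate 2 and WT replicate 2. With the macrophage score as a covariate the SE of Ftl1 was 0.12, against 0.28 without it. Both genes have processed copies elsewhere in the genome, and how reads were split among them is not known from the table.

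Ferroportin, the only known exporter of iron from cells, followed neither pattern. Slc40a1 (chromosome 1, 45908070 to 45925594, minus strand) was at 39.7, 57.8 and 161 CPM in WT and at 69.2, 96.1 and 88.1 CPM in KO. WT replicate 3 was highest, but WT replicates 1 and 2 were lowest, so that all 3 KO libraries lay inside the WT range. Within WT the highest library exceeded the lowest 4.06-fold, and within KO only 1.39-fold. This order, from WT replicate 3 and KO replicate 2 down to WT replicates 2 and 1, was that of the summed hair follicle genes apart from KO replicates 1 and 3. Without WT replicate 3 the difference between KO and WT was 0.80 on the log2 scale (limma, unadjusted p = 0.00373), against 0.22 with it. After adjustment for the hair follicle score, an alternative also chosen after the data were seen, it was -0.29 with an SE of 0.19. WT replicates 1 and 2, the lowest in Slc40a1, were also the libraries with almost no hair follicle transcripts. The hair follicle genes were chosen after their values were seen, and how many of all genes tested share this order was not counted. The cause of the order of Slc40a1 was not tested.

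Tfrc (chromosome 16, 32608896 to 32632794, plus strand), the receptor that takes up transferrin iron, was the steadiest member. It was at 116, 104 and 89.5 CPM in WT and at 100.3, 97.0 and 78.4 CPM in KO. Over all 6 libraries the highest exceeded the lowest 1.47-fold, and each group had replicate 3 lowest. Tfrc lies 9.45 Mb from Adipoq on the same chromosome, so that an effect of adiponectin and one of linked sequence cannot be told apart for this gene.

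**Figure D3:**
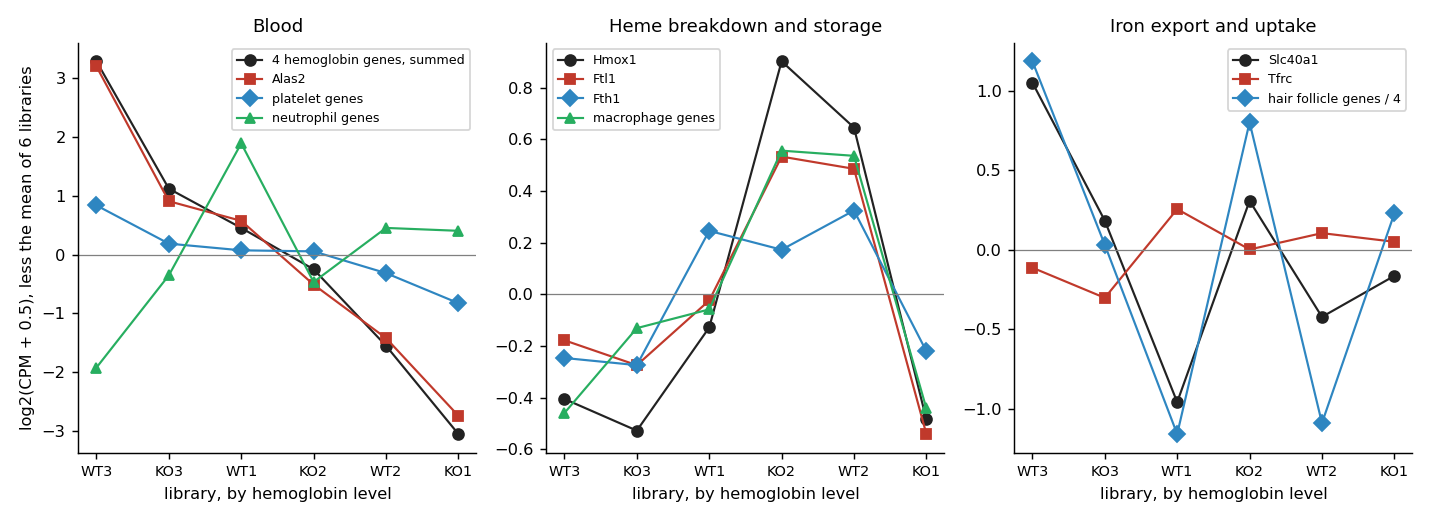
Level of members and of marker lists in each library, as log2(CPM + 0.5) less the mean of the 6 libraries. Libraries stand from highest to lowest hemoglobin, and the vertical axis has its own range in each panel. On the left, Alas2 falls with the 4 summed globin genes, platelet genes fall less, and neutrophil genes have their peak in WT replicate 1. In the middle, Hmox1, Ftl1 and the macrophage genes share their highest values in KO replicate 2 and WT replicate 2. On the right, Slc40a1 and the hair follicle genes (divided by 4 to fit the axis) are highest in WT replicate 3 and KO replicate 2, and Tfrc stays nearly level.

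Per length of transcript, the median level over the 6 libraries was highest for Hba-a2 at 657 CPM per kb, followed by Fth1 at 522, Hba-a1 at 403, Ftl1 at 268 and Hbb-bs at 256 CPM per kb. Below these came Hmox1 at 103, Hbb-bt at 43.6, Slc40a1 at 23.3, Tfrc at 20.2 and Alas2 at 8.07 CPM per kb. The order among the globin genes and their neighbours did not exceed their spread. Hba-a2 alone ran from 86.3 to 5819 CPM per kb. Fth1 (435 to 658 CPM per kb) stood above Ftl1 (197 to 416 CPM per kb) with no overlap. The ranges of Slc40a1 (11.8 to 47.8 CPM per kb) and Tfrc (16.04 to 23.7 CPM per kb) overlapped.

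Next, KO and WT skin were compared in limma, fitted over all 14306 genes tested. None of the 10 members passed the test. By adjusted p below 0.05, 0 of 10 were called (background 0.014%, 2 genes, Adipoq and Gm12191). By unadjusted p below 0.05, 0 of 10 passed (background 2.88%, 412 genes). WT and KO values overlapped in all 10, where they did not overlap in 7.84% of all genes tested. Of the members 9 had negative differences and only Slc40a1 a positive one, and over all genes tested 56.7% were negative with a median of -0.03. Every member had an adjusted p of 0.998.

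The precision differed widely between the members. For the blood genes the log2 difference, KO minus WT, was -1.55 for Hba-a1 (95% interval -4.77 to 1.67), -1.42 for Hba-a2 (-4.39 to 1.55), -1.42 for Hbb-bs (-4.53 to 1.69), -1.26 for Hbb-bt (-4.37 to 1.85) and -1.56 for Alas2 (-4.40 to 1.28). These intervals admit large changes in either direction, so that a difference in blood content was not detectable with 3 mice a group. Without WT replicate 3 the globin differences came to between -0.28 (Hba-a1) and 0.024 (Hbb-bt), and that of Alas2 to -0.36. Hmox1 was at -0.07 (-1.03 to 0.88) and Slc40a1 at 0.22 (-0.82 to 1.26). Ftl1 was at -0.19 (-0.85 to 0.47), Fth1 at -0.22 (-0.64 to 0.21) and Tfrc at -0.17 (-0.49 to 0.16). Also without WT replicate 3, Fth1 came to -0.39 (limma, unadjusted p = 0.0326). That fit set WT libraries almost without hair follicle transcripts against KO libraries that held them. When all libraries were kept and the hair follicle score was adjusted for, Fth1 was at -0.10 (limma, unadjusted p = 0.572). After adjustment for the hair follicle score, Hba-a1, Hba-a2, Hbb-bs and Alas2 came to between -2.61 and -2.44, with unadjusted p-values of 0.0272 to 0.0437 and adjusted p-values of 0.704 or more in limma. Across the alternatives the smallest adjusted p of any member was 0.412, that of Slc40a1 without WT replicate 3.

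**Figure D4:**
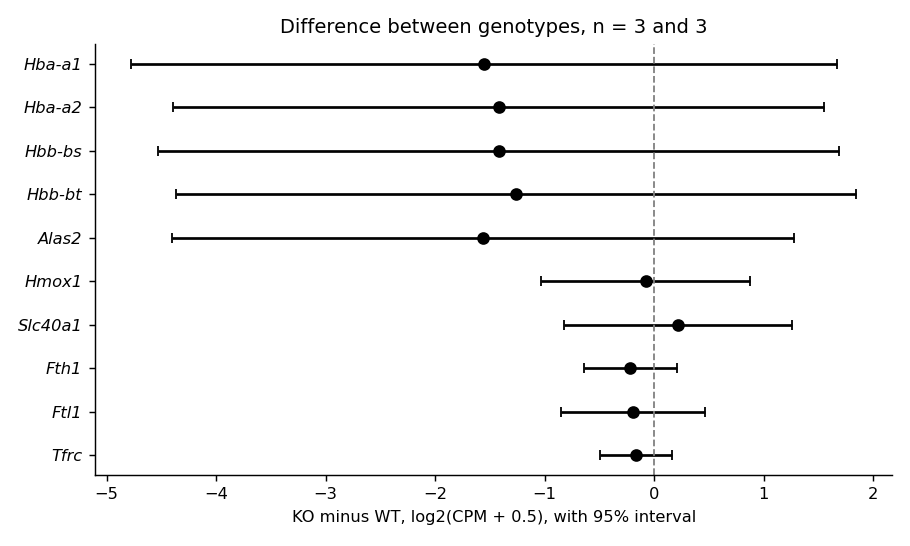
Difference between KO and WT for each member in log2(CPM + 0.5), from limma, with its 95% interval (n = 3 WT and 3 KO). The dashed line marks no difference. All 10 intervals cross it, and those of the 4 globin genes and Alas2 are the widest, from -4.77 to 1.85 in all.

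The wider genes of heme and iron metabolism were then read from the same fit, in 7 lists that held 62 tested genes besides the members. Of these, 42 had negative and 20 positive differences (median -0.09), 0 reached an unadjusted p below 0.05, and 3 (4.84%) had groups that did not overlap, a smaller share than the 7.84% of all genes tested. The 3 were Fech, Pcbp1 and Fbxl5, all lower in KO, and they are described for their roles, since the count does not set the lists apart. Fech, which inserts iron into heme, was at 58.8, 68.6 and 93.0 CPM in WT and at 53.7, 55.8 and 57.6 CPM in KO (log2 difference -0.37, unadjusted p = 0.0616 in limma). Fbxl5, the iron-sensing factor that removes iron regulatory protein 2, was at 61.5, 61.2 and 59.2 CPM in WT and at 51.4, 54.1 and 47.6 CPM in KO (-0.25, unadjusted p = 0.0514 in limma). Pcbp1, an iron chaperone that loads ferritin, was at 199.7 to 203 CPM in WT and at 178 to 194 CPM in KO (-0.13, unadjusted p = 0.186 in limma).

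In heme synthesis, 6 of 12 tested genes had negative differences (median -0.07), and after Fech the smallest p was that of Urod, a middle step of the pathway (0.32, unadjusted p = 0.0864 in limma). In heme breakdown and transport, 9 of 14 were negative (median -0.03, and 0.021 and 0.038 without WT replicates 1 and 2). Haptoglobin (Hp), the plasma protein that captures free hemoglobin, had the smallest p there, at 240.4, 281 and 135 CPM in WT and at 92.7, 223 and 43.5 CPM in KO (-1.11, unadjusted p = 0.0761 in limma). Flvcr1, a heme exporter, followed (-0.18, unadjusted p = 0.284 in limma). Hp was thus highest in WT replicates 1 and 2, and its groups overlapped through KO replicate 2.

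In iron uptake, 12 of 14 tested genes were negative (median -0.33), led by the ferrireductase Steap3 (-0.31, unadjusted p = 0.0893 in limma) and by transferrin, Trf (-0.39, unadjusted p = 0.102 in limma). In storage all 5 tested genes were negative (median -0.13). In the list of export and the hepcidin axis 4 of 9 were negative (median 0.19), but the median was -0.21 without WT replicate 1 and -0.15 after adjustment for the hair follicle score. Hjv, a coreceptor that raises hepcidin, was at -0.51 (unadjusted p = 0.109 in limma) and the ferroxidase Cp at -0.34 (unadjusted p = 0.137 in limma). All 3 genes of the iron regulatory proteins were negative (median -0.25), with Aco1, which is iron regulatory protein 1 when it has lost its iron-sulfur cluster, at -0.27 (unadjusted p = 0.091 in limma). Of NRF2, BACH1 and their targets, which include Hmox1 and both ferritins, 12 of 15 were negative (median -0.07), with the factor NRF2 itself, Nfe2l2, at -0.27 (unadjusted p = 0.0987 in limma) and its target Nqo1 at -0.47 (unadjusted p = 0.131 in limma). Since no gene of these 7 lists reached an unadjusted p below 0.05, none is called changed.

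Some genes of the remaining lists did reach that level, without passing the adjustment (adjusted p = 0.998 in limma). Of all genes tested 2.88% reached it, and no list is set apart by counts of 1 or 2 genes. Both globins outside red cells that were tested were lower in KO. Myoglobin (Mb), the oxygen store of muscle, was at 122, 150.1 and 139 CPM in WT and at 120.8, 78.5 and 103 CPM in KO (-0.46, unadjusted p = 0.0266 in limma), with groups that did not overlap. Cytoglobin (Cygb), found in fibroblasts, was at 38.2, 45.8 and 45.5 CPM in WT and at 21.5, 39.2 and 30.6 CPM in KO (-0.53, unadjusted p = 0.0405 in limma). Among macrophage genes 1 of 12 reached it, Lyve1, a hyaluronan receptor of lymphatic vessels and of a class of tissue macrophages (-0.53, unadjusted p = 0.0233 in limma), and Timd4 came next (0.95, unadjusted p = 0.131 in limma). In skin genes 1 of 8 did, the collagen Col1a1, which was higher (0.50, unadjusted p = 0.0391 in limma), followed by Col1a2 (0.32, unadjusted p = 0.117 in limma). In the erythroid, platelet and neutrophil lists 0 of 9, 0 of 7 and 0 of 6 did. Their smallest p-values in limma were 0.221 for Tal1, 0.12 for Itga2b and 0.16 for Pf4, and 0.218 for Mmp9 and 0.436 for Retnlg. The lists had medians of -0.16, -0.48 and -0.48, none of which was stable. Leaving out WT replicate 3 moved the erythroid median to 0.15, and leaving out KO replicate 1 to -0.018. The same omissions moved the platelet median to -0.0060 and -0.043, and it was 0.086 with the hemoglobin sum as a covariate. The neutrophil median was 0.88 without WT replicate 1, -1.22 without WT replicate 3 and 0.71 after adjustment for the hair follicle score. The 14 hair follicle genes, chosen after their values were seen, had a median of 2.75 (5.87 without WT replicate 3, 1.16 without WT replicate 1 and 1.26 without WT replicate 2) with 0 of 14 at that level, the smallest p being 0.134 for Krt71 and 0.163 for Krt27.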

How the data were processed

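Ear skin RNA of 3 WT and 3 KO mice was sequenced as paired ends (TruSeq libraries, HiSeq). Per the labels and the methods of the study, the authors aligned reads with STAR 2.7.3a to mm10, quantified genes by expectation-maximization in Partek Flow, and deposited CPM, each count divided by the library total plus an offset of 0.0001, which was subtracted here. The sources used here do not say whether counting used read strand, so overlapping genes can share reads, and near-identical genes share reads by estimation. The ribosomal gene Rn45s took 7.99% to 11.4% of the reads. Within 20 reads, 91.6% to 92.7% of low values lay within 0.1 of a whole read, which gave the implied depth. Recovered reads are estimates, and floors cover counting error only. The intervals of the differences came from limma and, like its p-values, rest on the spread between libraries of single mice.

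The 2 groups were compared with limma (version 3.58.1, R 4.3.3; eBayes with a trend, two-sided) on log2(CPM + 0.5). Genes had to average 1 CPM or more over the 6 libraries, which left 14306, with Benjamini-Hochberg adjustment over all of them. Differences on this scale understate the change of low genes. Libraries are single punches of single mice per the methods of the study, so p-values rest on the spread between mice, punches and library preparations together. Gene positions are those of the table (GRCm38, from 1). Transcript lengths and sequences of UTRs came from GENCODE M21, promoters from RefSeq, which matched 8 of the 10 members. No promoter is printed for Hmox1 and Slc40a1. Besides the members, the genes named were Adipoq, the genes of the erythroid and globin lists in the table (some are not reported here), the 2 of smallest p and any at an unadjusted p below 0.05 in each list, and the 5 nearest in Pearson correlation to hemoglobin and to Hmox1 (mean of at least 5 CPM). Genes named outside this rule were chosen after their values were seen (Krt5, Cd163, Ppbp, Itgb3, Tubb1, Gp1bb and Gm12191). The members and lists were chosen with earlier results of these data known. This fit was first run on simulated counts with the same, smaller spread for every gene and no outlying library. The simulation therefore does not bear on genes as variable as the globin genes here. Alternatives covered pseudocounts, filters, scalings, limma settings, covariates, a replicate block, limma voom on recovered reads and leaving out each library.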

Additional observations from a re-analysis of the deposited data

How the results depend on the processing

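Of the differences of single members under the alternatives, 208 kept their sign and 8 reversed, none of them called. The filters, the eBayes settings and the replicate block cannot change the difference of a member, only its p. Their agreement in sign was thus fixed in advance, and the 208 overstate how stable the differences were. Reversed were Hmox1 (0.23, 0.15 and 0.17 without WT replicate 2, KO replicate 1 and KO replicate 3), Ftl1 (0.0068 and 0.035 without WT replicate 2 and KO replicate 1), Hbb-bt (0.024 without WT replicate 3) and Slc40a1 (-0.21 without WT replicate 1 and -0.29 with the hair follicle covariate). When a library was left out, Hmox1 ranged from -0.54 to 0.23, Ftl1 from -0.50 to 0.035, Hbb-bt from -2.40 to 0.024 and Slc40a1 from -0.21 to 0.80. The number of members at an unadjusted p below 0.05 was 0 to 2 when a library was left out (2 without WT replicate 3, Slc40a1 and Fth1) and 4 with the hair follicle covariate (Hba-a1, Hba-a2, Hbb-bs and Alas2). All genes at that level numbered 412, and 641 with array weights, 902 with the hair follicle covariate and 309 to 708 when a library was left out. Genes called after adjustment numbered 2, and 1 with limma voom, 9 with the hair follicle covariate and 0 to 16 when a library was left out. The summed hemoglobin difference of -1.45 ranged from -2.59 to -0.18 when a library was left out. The cause of these changes was not tested. Over all genes tested, deviations of same-numbered libraries had correlations of 0.38, -0.31 and -0.22 for replicates 1, 2 and 3. These values cannot settle whether same-numbered mice were paired, and the labels do not say. The SE of every member was smaller with the replicate block, that of Hmox1 being 0.13 against 0.41 without it. With the replicate block 591 genes reached an unadjusted p below 0.05, 0 members among them, and 2 were called. The lowest member value, Alas2 in KO replicate 1, rested on 12 implied reads.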
